A study of Mus musculus with 4 samples.

Results

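The array carried probes for 7 cadherin and catenin genes whose spots were read here on every array: the cadherins Cdh2, Cdh6, Cdh11, Cdh13 and Cdh15, and the catenins Ctnna1 and Ctnnb1. They were picked by gene symbol with earlier results of these data known, and are 7 of the 268 genes on the membrane. The 5 cadherins are those of the array's cadherins with a present call on any array, so their being detected is no result. All 7 were called present on at least 1 array, and each had 1 spot per array. The question was which of these cadherins gave most of the cadherin signal in each type of muscle-derived stem cell (MDSC), and whether the catenins moved with them.

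RNA came from MDSCs of 4 kinds of mice, all male and all listed on the C57BL/6J background, whose hind limb muscle cells had been separated by serial preplating. The genotype of the mdx mice names another strain, 10ScSn, than that listed background. A strain difference from WT therefore cannot be told apart from the dystrophin mutation. The WT mice were wild type, the Mst KO mice lacked both copies of the myostatin gene (Mst-/-), the mdx mice (10ScSn-Dmdmdx) had an inactive dystrophin gene, and the Oct4 transgenic mice carried an Oct4 promoter with a reporter, which the sources used here do not name further. The labels give no ages, and the methods of the study state the ages of the WT and Mst KO mice only. For these cultures the methods also name a selection of Sca1-positive cells with antibody-coated beads. Near-confluent cultures in serum-rich medium were used, and 1 array was run for each MDSC type, from RNA pooled over 3 flasks according to the methods of the study. With 1 array a group, no spread between cultures or animals could be measured, there is no test and no p-value, and every fold below compares single arrays. The word higher or lower in a count stands for a ratio of 2-fold or more.

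The values are spot intensities normalized within each array, so they have no unit. Between 126 and 136 of the 268 genes were called present on an array, and the lowest value of a present gene lay between 0.697 and 0.898. Mstn, the gene deleted in the Mst KO mice, is not analysed here. Cd44, a surface marker commonly used for MDSCs, was called present on all 4 arrays. The spots for the leukocyte gene Ptprc, for the endothelial genes Cdh5 and Kdr and for the epithelial genes Cdh1 and Krt15 were called absent on all 4. Of 5 hematopoietic markers on the array only Cd8a was called present, at 1.67 to 2.86. Of 4 neural markers, 1 was called present in WT, 1 in Mst KO, 0 in mdx and 1 in Oct4 transgenic MDSCs. The marker in WT was Nes at 0.699, and that in Oct4 transgenic MDSCs was Tubb3 at 1.51, against 0.397 and absent in WT. In RNA from whole cultures, fewer cells of a type and less RNA per cell cannot be told apart.

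Cadherins are calcium-dependent adhesion proteins that bind cadherins on the neighbouring cell. The tail of a classical cadherin binds beta-catenin (Ctnnb1), which binds alpha-catenin (Ctnna1), and this in turn links the junction to the actin cytoskeleton. Beta-catenin released from the junction can also act as the transcriptional effector of the Wnt pathway. In skeletal muscle, M-cadherin (Cdh15) marks satellite cells and myoblasts, N-cadherin (Cdh2) is found on myoblasts and on neural cells, and OB-cadherin (Cdh11) is typical of mesenchymal cells such as fibroblasts and bone-forming cells. K-cadherin (Cdh6) is known from the developing kidney, and T-cadherin (Cdh13) is attached to the membrane by a lipid anchor and lacks the tail that binds catenins.

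The WT array had the muscle cadherin Cdh15 as its brightest cadherin spot, and the other 3 arrays had Cdh11. Probes differ in brightness, so the brightest spot is not necessarily the most abundant mRNA, and only the change of this order between arrays is read. Summed over the 5 cadherin spots, the normalized intensity was 28.2 in WT, 80.0 in Mst KO, 83.0 in mdx and 40.4 in Oct4 transgenic MDSCs. Cdh11 made up 26.2% of that sum in WT, 82.0% in Mst KO, 82.7% in mdx and 55.2% in Oct4 transgenic MDSCs. Cdh15 made up 30.7% in WT and 2.07%, 1.61% and 2.61% on the Mst KO, mdx and Oct4 transgenic arrays. The cadherin signal was thus spread over several genes in WT and was mostly that of Cdh11 in Mst KO and mdx MDSCs. The Oct4 transgenic array had a second large share, that of Cdh2 at 32.8%, against 23.2% in WT and 3.81% and 3.07% on the Mst KO and mdx arrays. With the local background of each spot subtracted instead, the Cdh11 share was 26.5%, 82.8%, 83.9% and 56.0% in the same order.

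**Figure D1:**
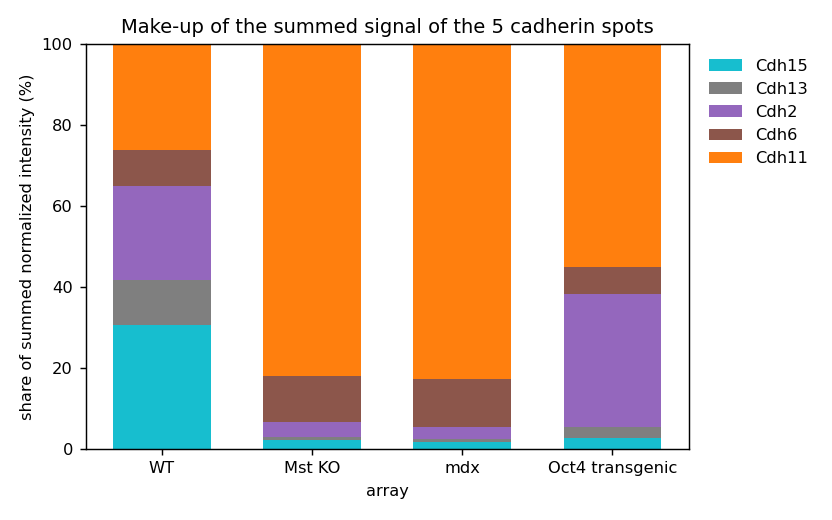
Stacked bars of the share (%) that each of the 5 cadherin spots had in their summed normalized intensity, 1 bar for each array. Cdh11 takes 26.2% of the WT bar and 82.0% and 82.7% of the Mst KO and mdx bars, and Cdh15 shrinks from 30.7% in WT to 2.61% or less elsewhere. There is 1 array per bar and no error can be given.

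Cdh15, the cadherin of muscle precursor cells, read 8.67 in WT on the normalized scale, 1.66 in Mst KO, 1.34 in mdx and 1.06 in Oct4 transgenic MDSCs. WT stood alone at the top and the other arrays lay close together, not far above the lowest values of present genes. Against WT, Cdh15 was 5.22-fold lower in Mst KO, 6.49-fold lower in mdx and 8.21-fold lower in Oct4 transgenic MDSCs. It was the 4th lowest ratio of 144 genes in Mst KO, the 4th lowest of 143 in mdx and the 2nd lowest of 144 in Oct4 transgenic MDSCs. The 3 comparisons share the WT array, so a deviation of that array would appear in each of them. Before any scaling, the raw spot read 3398 in WT against 791, 591 and 522, at 6.08 times its local background in WT and 2.49, 1.88 and 1.72 times on the Mst KO, mdx and Oct4 transgenic arrays.

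The genes whose pattern over the 4 arrays lay nearest to that of Cdh15 were Myod1 and Actc1, by root mean square difference of log2 values centred on each gene's mean. Myod1, the transcription factor of muscle commitment, differed from the Cdh15 pattern by 0.17, with intensities of 17.5, 2.65, 2.68 and 1.68 in WT, Mst KO, mdx and Oct4 transgenic MDSCs. Actc1, an alpha-actin of heart and developing skeletal muscle, differed by 0.18, with 39.9, 6.52, 4.87 and 5.23. Both were high in WT and several-fold lower on each other array, as was Cdh15. Spp1, which encodes the secreted phosphoprotein osteopontin, came next at 0.49. The measure covers 4 arrays only. The summed intensity of the skeletal myogenic markers, 5 of 6 of them present, was 69.4 in WT and 19.7, 16.7 and 16.6 on the Mst KO, mdx and Oct4 transgenic arrays. Most of the WT sum was the 39.9 of Actc1 and the 17.5 of Myod1, so the sum largely repeats these same spots. Of these 5 markers, Myod1 and Actc1 were at least 2-fold lower in each comparison with WT, and the other 3 stayed within 2-fold, where 9.72% of all measured genes were lower in Mst KO, 13.3% in mdx and 8.33% in Oct4 transgenic MDSCs. Whether a change in the number of myogenic cells had a part in the lower Cdh15 signal was not tested.

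The upstream sequences of Cdh15 and of Cdh6, a cadherin that was higher in Mst KO and mdx than in WT where Cdh15 was lower, are shown because muscle transcription factors such as MyoD bind E-boxes. Promoter entries of RefSeq (mouse assembly GRCm38.p6) matched 3 of the 7 genes by symbol, namely Cdh6, Cdh15 and Ctnnb1. The first entry of each shown symbol was used, and the Ctnnb1 window was not read on its own. The windows run from 250 bases before to 50 bases after the annotated start, at chr8:122848124-122848423 on the plus strand for Cdh15 and at chr15:13173626-13173925 on the minus strand for Cdh6, and are written 5′ to 3′ with each E-box (CANNTG, the same on both strands) in capitals.
Cdh15: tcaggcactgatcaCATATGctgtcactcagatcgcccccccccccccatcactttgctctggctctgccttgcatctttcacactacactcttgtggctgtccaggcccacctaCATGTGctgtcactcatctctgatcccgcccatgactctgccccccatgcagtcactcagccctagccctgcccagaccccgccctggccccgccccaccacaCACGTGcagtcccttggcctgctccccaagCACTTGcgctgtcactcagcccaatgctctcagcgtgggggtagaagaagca
Cdh6: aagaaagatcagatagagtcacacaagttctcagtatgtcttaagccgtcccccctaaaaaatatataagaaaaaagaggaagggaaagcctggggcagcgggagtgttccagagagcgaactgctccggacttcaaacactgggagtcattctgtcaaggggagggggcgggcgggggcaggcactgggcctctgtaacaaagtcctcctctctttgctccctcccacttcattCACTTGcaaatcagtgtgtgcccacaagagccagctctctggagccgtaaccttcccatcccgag

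The Cdh15 window held 4 E-boxes, whose first bases lay at 236, 135, 32 and 2 bases before the start, as marked by the capitals above. The Cdh6 window held 1, at 15 bases before the start. Of 32851 mouse promoter windows of this length, 72.3% held at least 1 E-box and 6.49% held 4 or more. Neither window held CAGCTG, found in 16.3% of all windows, or CAGGTG and its reverse complement CACCTG, found in 20.2%. These are matches of letters only, and no binding was measured.

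Cdh13 also had its highest value in WT, and its spot was called absent on the arrays of Mst KO and mdx MDSCs. Its normalized intensity was 3.12 in WT, 0.668 in Mst KO, 0.622 in mdx and 1.09 in Oct4 transgenic MDSCs. Relative to WT it was 2.86-fold lower in Oct4 transgenic MDSCs. For the absent spots the value was raised to the lowest value of a present gene on that array, which gave a Cdh13 signal 4.14-fold lower in Mst KO and 3.47-fold lower in mdx than in WT. These folds are no strict limits, since an absent spot can read higher, as Cdh12 did in mdx at 1.37. With no background subtracted, the Cdh13 log2 ratios to WT were −1.28 in Mst KO and −1.66 in mdx. The raw spot was 4.26 times its local background in WT, 1.41 times in Mst KO, 1.02 times in mdx and 1.96 times in Oct4 transgenic MDSCs, so the mdx spot was hardly brighter than the membrane around it. Its nearest patterns were those of the receptor gene Notch1 (0.35), the growth factor gene Fgf5 (0.38) and the receptor gene Notch3 (0.40), which were all dim and, like Cdh13, highest in WT. All 4 of these genes were called absent in mdx and were raised to the same lowest present value there, so their likeness on that array is set by that limit, and Cdh13 was at the limit in Mst KO as well. Cdh13 and Cdh15 differed by 0.58 and are neighbouring spots on the membrane. Whether light from 1 spot added to the other was not tested.

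**Figure D2:**
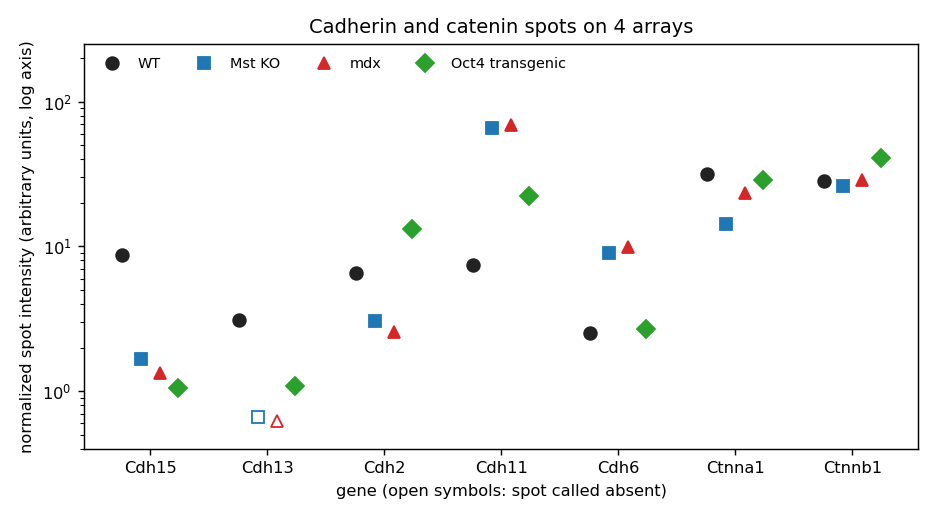
Normalized spot intensity (log axis, arbitrary units) of the 5 cadherins and 2 catenins, with 1 symbol per array and open symbols for spots called absent. Cdh15 and Cdh13 are highest in WT (8.67 and 3.12), Cdh11 and Cdh6 are highest in Mst KO and mdx, and Ctnnb1 lies between 26.1 and 40.7 on all 4 arrays.

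Cdh11, the mesenchymal cadherin, showed the widest span of the 7 genes. Its normalized intensity was 7.39 in WT, 65.6 in Mst KO, 68.7 in mdx and 22.3 in Oct4 transgenic MDSCs. Mst KO and mdx were high and within 1.05-fold of each other, Oct4 transgenic was intermediate and WT was low. Cdh11 was 8.88-fold higher in Mst KO and 9.29-fold higher in mdx than in WT, in both cases the 3rd highest ratio on the array, and 3.01-fold higher in Oct4 transgenic MDSCs. Between arrays other than WT, it was 2.95-fold lower in Oct4 transgenic than in Mst KO and 3.08-fold lower than in mdx. The raw spot read 2926 in WT, 24007 in Mst KO, 21436 in mdx and 6825 in Oct4 transgenic MDSCs, and it was the 4th brightest gene in Mst KO and in mdx, against the 38th in WT.

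A bright spot can light up its surroundings, so the 4 spots touching Cdh11 were read as well. The spots of Cdh10, Cdh12 and Cd3d were called absent on all 4 arrays. Cdh12, to the right of Cdh11, had 0.203 in WT, 0.736 in Mst KO, 1.37 in mdx and 0.452 in Oct4 transgenic MDSCs, and Cdh10, to its left, had 0.0695, 0.456, 0.967 and 0.324. Both were highest where Cdh11 was bright, while their raw values in Mst KO and mdx MDSCs differed from their own local background by between −114 and 3.09 units. The spot below, Cdk2, was called present, with 1.06, 1.63, 2.78 and 1.41 as normalized, but its raw value above local background was 303, 265, 265 and 233 and was not higher in Mst KO or mdx than in WT. None of the 4 neighbours was above 2.78, and no spot of the 7 genes carried a mark for bleeding. The part of this stray light in the values of the dim neighbours was not tested.

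The patterns nearest to that of Cdh11 were those of Pdgfra (0.31), Cdkn2b (0.33) and Cxcl12 (0.70). Pdgfra, a receptor for platelet-derived growth factor typical of mesenchymal cells, had 2.90 in WT, 19.7 in Mst KO, 37.5 in mdx and 9.56 in Oct4 transgenic MDSCs. Cdkn2b, an inhibitor of cyclin-dependent kinases, was called absent in WT at 0.649 and had 9.64, 5.44 and 2.31 on the Mst KO, mdx and Oct4 transgenic arrays. Cxcl12, a chemokine made by stromal cells, had 1.12, 10.2, 5.01 and 6.38. The lowest array was WT for all of these genes, and Oct4 transgenic was the next lowest for Cdh11, Pdgfra and Cdkn2b but not for Cxcl12. The 5 mesenchymal markers on the array, of which Pdgfra and Cxcl12 are members, summed to 38.3 in WT with 4 present, 87.6 in Mst KO with 5, 149 in mdx with 4 and 50.5 in Oct4 transgenic MDSCs with 5. The collagen gene Col1a1 alone gave most of each sum, with 32.2, 55.0, 104.9 and 30.1 in the same order. Its value was not higher in Oct4 transgenic MDSCs than in WT. Against WT, 0 of these markers were at least 2-fold lower in any comparison, where 9.72%, 13.3% and 8.33% of all measured genes were. At least 2-fold higher were 2 of 5 measured markers in Mst KO, 3 of 4 in mdx and 4 of 5 in Oct4 transgenic MDSCs, where 6.94%, 8.39% and 13.2% of all measured genes were. The Oct4 transgenic count includes Thy1, whose spot was called absent in WT, and was 3 of 5 when absent values were set to that array's lowest present value. Whether more mesenchymal cells had a part in the Cdh11 signal was not tested.

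**Figure D3:**
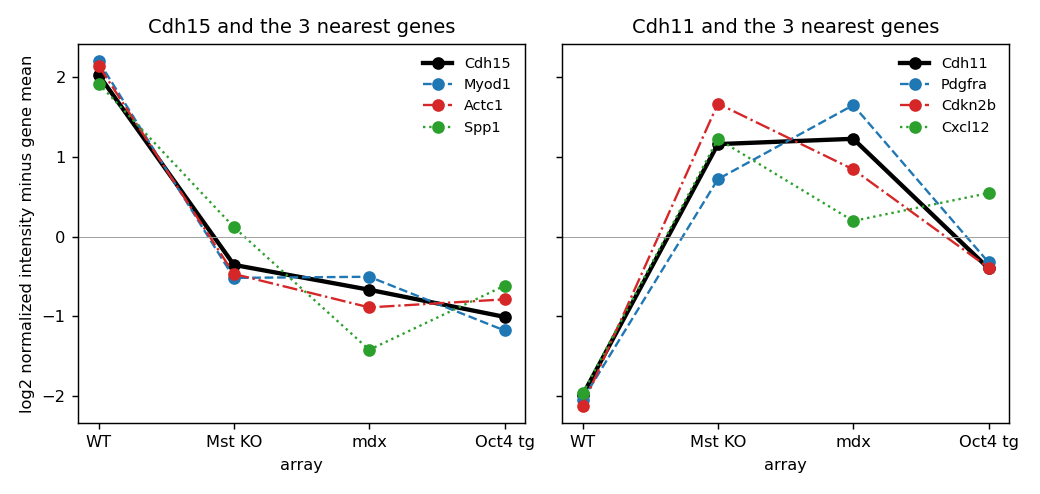
Log2 normalized intensity minus the gene's mean over the 4 arrays, for Cdh15 (left) and Cdh11 (right) with their 3 nearest genes, values below the lowest present value being raised to it. Cdh15, Myod1 and Actc1 drop together from WT to the other arrays (differences of 0.17 and 0.18), while Cdh11 and Pdgfra are lowest in WT (difference 0.31). The lines only join arrays and carry no order.

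Cdh6 was high on the same arrays as Cdh11, with 2.52 in WT, 9.02 in Mst KO, 9.83 in mdx and 2.69 in Oct4 transgenic MDSCs. The Mst KO and mdx values were close, and so were those of WT and Oct4 transgenic MDSCs. Cdh6 was 3.58-fold higher in Mst KO and 3.90-fold higher in mdx than in WT. In Oct4 transgenic MDSCs its log2 ratio to WT was 0.10, which turned to as low as −0.37 when the arrays were scaled to housekeeping genes, so no direction is given. It was 3.35-fold lower in Oct4 transgenic than in Mst KO and 3.65-fold lower than in mdx MDSCs. Cdh6 and Cdh11 differed by 0.59 in pattern, and the ratio of Cdh11 to Cdh6 was higher than in WT on each other array, by 2.48-fold in Mst KO, 2.38-fold in mdx and 2.82-fold in Oct4 transgenic MDSCs. The nearest genes to Cdh6 outside the family were Col1a1 (0.41), a chain of type I collagen, then the growth factor gene Fgf7 (0.44) and the kinase gene Cdk2 (0.59), whose spot lies under that of Cdh11. Col1a1 had 32.2, 55.0, 104.9 and 30.1 in WT, Mst KO, mdx and Oct4 transgenic MDSCs, and thus shared the low values of WT and Oct4 transgenic MDSCs with Cdh6.

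Cdh2 set the Oct4 transgenic array apart. N-cadherin mRNA had a normalized intensity of 6.55 in WT, 3.05 in Mst KO, 2.54 in mdx and 13.3 in Oct4 transgenic MDSCs. It was highest in Oct4 transgenic MDSCs, intermediate in WT and lowest in mdx and Mst KO, which were within 1.20-fold of each other. Oct4 transgenic MDSCs had 4.35-fold more Cdh2 signal than Mst KO and 5.21-fold more than mdx MDSCs, the 5th highest ratio of 142 genes and the 3rd highest of 137. Under other processing settings these log2 ratios of 2.12 and 2.38 were as low as 1.17 and 1.75. The differences from WT were smaller, 2.15-fold lower in Mst KO, 2.57-fold lower in mdx and 2.03-fold higher in Oct4 transgenic MDSCs. Of these, the Mst KO value fell within 2-fold under 5 of 8 other processing settings, to a log2 ratio of −0.65, and the Oct4 transgenic value under 4 of 8, to 0.52. The nearest patterns were those of the cell cycle inhibitor gene Cdkn1a (0.45), of Cd44 (0.55), the hyaluronan receptor, and of B2m (0.59), which encodes the small subunit of the class I antigen-presenting complex. B2m had 33.0 in WT, 22.5 in Mst KO, 36.1 in mdx and 72.2 in Oct4 transgenic MDSCs. It is also among the 5 housekeeping genes used for scaling, so that scaling partly divides Cdh2 by a gene of similar pattern.

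The alpha-catenin gene Ctnna1 had 31.6 in WT, 14.2 in Mst KO, 23.5 in mdx and 28.6 in Oct4 transgenic MDSCs. Mst KO was the lowest, 2.22-fold under WT, and the other arrays lay closer to WT, with log2 ratios to it of −0.43 in mdx and −0.15 in Oct4 transgenic MDSCs. The Mst KO value came within 2-fold of WT under 3 of 8 other settings, at a log2 ratio of −0.79 in the smallest case. Between Oct4 transgenic and Mst KO MDSCs the Ctnna1 signal was 2.01-fold higher in the former, and under 4 of 8 settings this was within 2-fold, down to a log2 ratio of 0.19. Its nearest patterns were those of Bmi1 (0.16), a Polycomb protein, of Csnk1a1 (0.19), the kinase that primes beta-catenin for breakdown, and of Fgf6 (0.19), a growth factor of muscle.

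The beta-catenin gene Ctnnb1 varied least of the 7. Its normalized intensity was 28.1 in WT, 26.1 in Mst KO, 28.6 in mdx and 40.7 in Oct4 transgenic MDSCs, and no pair of arrays differed by 2-fold or more as deposited or under the 8 other settings. The Oct4 transgenic value was the highest, with a log2 ratio to WT of 0.53 as deposited and 0.07 in the scaling that brought it lowest. In Mst KO and mdx MDSCs the log2 ratios to WT were −0.11 and 0.02, and their sign turned under other scalings, to 0.23 and −0.03. The genes nearest to it were Ascl2 (0.02), a transcription factor gene, the chaperone gene Hsp90ab1 (0.03), which is 1 of the 5 housekeeping genes of the array, and Apc (0.06), a scaffold of the complex that breaks down beta-catenin. Within an array, the ratio of Ctnna1 to Ctnnb1 had a log2 value of 0.17 in WT, −0.88 in Mst KO, −0.28 in mdx and −0.51 in Oct4 transgenic MDSCs. This ratio does not depend on how an array is scaled.

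**Figure D4:**
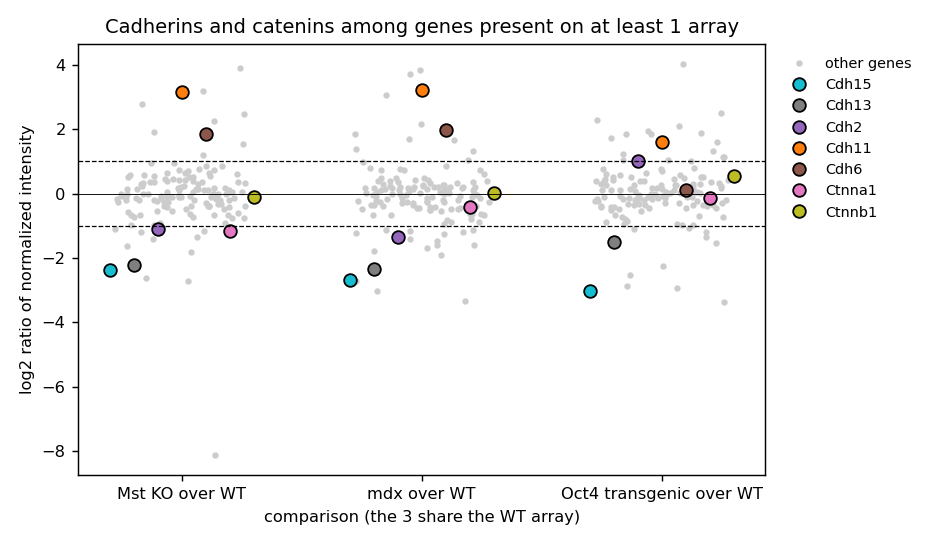
Log2 ratios of normalized intensity as deposited, of each MDSC type over WT, for the 7 genes (coloured) and all other genes measured in that pair (grey), with dashed lines at 2-fold. The 3 columns share the WT array. Cdh11 is the 3rd highest gene in the Mst KO and mdx columns, and Cdh15 is among the 4 lowest in each column. The Cdh13 points in the Mst KO and mdx columns come from spots called absent and stand lower than the folds given in the text, which use raised values.

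In counts, the 7 genes compare with the whole array as follows. Between Mst KO and WT, 2 of the 7 were at least 2-fold higher (Cdh11, Cdh6), where 6.94% of the 144 measured genes were, and 4 were at least 2-fold lower (Cdh2, Cdh13, Cdh15, Ctnna1), where 9.72% of all were. Between mdx and WT, 2 were higher (Cdh11, Cdh6), where 8.39% of 143 genes were, and 3 were lower (Cdh2, Cdh13, Cdh15), where 13.3% were. Between Oct4 transgenic and WT MDSCs, 2 were higher (Cdh2, Cdh11), where 13.2% of 144 genes were, and 2 were lower (Cdh13, Cdh15), where 8.33% were. In these comparisons the 7 genes had a median log2 ratio of −1.10, −0.43 and 0.10, against −0.04, −0.03 and −0.01 over all genes. The groups of higher and lower cadherins thus had Cdh11, Cdh13 and Cdh15 in common in all 3 comparisons with WT, which is a single WT array.

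Of the 6 genes measured between Mst KO and mdx MDSCs, 0 were at least 2-fold higher in Mst KO and 0 were lower, where 2.86% and 3.57% of 140 genes were. Few genes of any kind differed between these arrays, so the count is not particular to the cadherins and catenins. The widest log2 ratio of the 6 was that of Ctnna1 at −0.73. Between Oct4 transgenic and Mst KO MDSCs, 2 of 7 were higher (Cdh2, Ctnna1), where 9.86% of 142 genes were, and 2 were lower (Cdh6, Cdh11), where 7.75% were. Between Oct4 transgenic and mdx MDSCs, 1 was higher (Cdh2), where 10.2% of 137 genes were, and 2 were lower (Cdh6, Cdh11), where 8.76% were. Cdh15 was within 2-fold among these 3 arrays as deposited, at log2 ratios of 0.31 for Mst KO over mdx, −0.65 for Oct4 transgenic over Mst KO and −0.34 for Oct4 transgenic over mdx. The comparison with Mst KO went past 2-fold when the arrays were scaled to Gapdh or to 5 housekeeping genes, to a log2 ratio of −1.46.

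The balance of Cdh11 and Cdh15 within an array, which no scaling factor changes, had a log2 value of −0.23 in WT, 5.31 in Mst KO, 5.68 in mdx and 4.40 in Oct4 transgenic MDSCs. Relative to WT the ratio was 46.4-fold higher in Mst KO, 60.3-fold higher in mdx and 24.7-fold higher in Oct4 transgenic MDSCs. The ratio of Cdh11 to Cdh2 separated the arrays in another way, with log2 values of 0.18 in WT, 4.43 in Mst KO, 4.75 in mdx and 0.75 in Oct4 transgenic MDSCs. WT and Oct4 transgenic MDSCs were thus near each other in the balance of OB- and N-cadherin, and far apart in the balance of OB- and M-cadherin. The log2 ratio of Cdh2 to Cdh15 was −0.40, 0.88, 0.93 and 3.65 in the same order.

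Over the 4 arrays the highest value was 9.29-fold the lowest for Cdh11, 8.21-fold for Cdh15, 5.21-fold for Cdh2, 4.14-fold for Cdh13 with its absent values raised, and 3.90-fold for Cdh6. With absent values raised in this way for all genes, these spans were the 7th, 9th, 12th, 15th and 16th widest of 149 genes present on any array, and the median span of those genes was 1.61-fold. The catenins spanned less, 2.22-fold for Ctnna1, the 35th widest, and 1.56-fold for Ctnnb1, the 81st. Among these 7 genes the cadherins thus spanned more than the catenins, and beta-catenin was close to the typical gene. The 7 genes were picked with earlier results of these data known, so the ranks of their spans are no test of the family. Among the pairs of the 7 genes, Cdh11 and Cdh15 had the most unlike patterns, differing by 2.37.

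**Figure D5:**
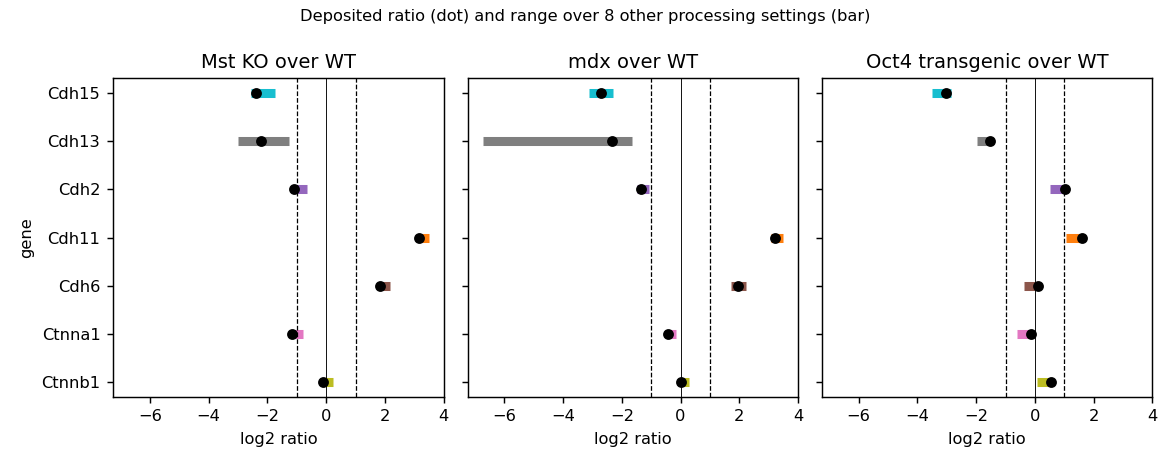
Log2 ratios over WT as deposited (dots) and their range over 8 other processing settings (bars), with dashed lines at 2-fold. The Cdh11 bars stay right of the upper line and the Cdh15 and Cdh13 bars stay left of the lower line in all 3 panels, whereas the Cdh2 bars for Mst KO and Oct4 transgenic and the Ctnna1 bar for Mst KO cross it. The bars are not errors between cultures, which were not measured.

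The array had 9 other cadherins (Cdh1, Cdh3, Cdh4, Cdh5, Cdh7, Cdh8, Cdh9, Cdh10 and Cdh12), and all were called absent on all 4 arrays. Their highest normalized intensity was 0.232 in WT, 0.736 in Mst KO, 1.37 in mdx and 0.452 in Oct4 transgenic MDSCs, the last 3 of them the Cdh12 spot beside Cdh11. E-cadherin (Cdh1) and VE-cadherin (Cdh5), which define epithelial and endothelial junctions, were among them. An absent call says that a spot was not told from background, not that the mRNA was missing.

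Of 16 genes of the Wnt pathway and beta-catenin partners on the array, 10 were measured against WT, and 0 were at least 2-fold higher in any of the 3 comparisons, where 6.94% to 13.2% of all measured genes were. In Mst KO 1 was lower on the deposited values, where 9.72% of all genes were. This was Frat1, an inhibitor of the kinase that marks beta-catenin for breakdown, which was called present in WT and absent on the other arrays. With its absent value raised to the lowest present value it was within 2-fold, and 0 of 10 were lower. Their median log2 ratio was 0.27 in Mst KO, 0.10 in mdx and 0.13 in Oct4 transgenic MDSCs. Between Oct4 transgenic and Mst KO or mdx MDSCs, 1 of 9 was lower, where 7.75% and 8.76% of all measured genes were. This was the Wnt receptor gene Fzd1, with 3.39 in Mst KO, 3.53 in mdx and 1.41 in Oct4 transgenic MDSCs. A count of 1 is near those shares and is not particular to this list.

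Of the other adhesion and gap junction genes, the connexin gene Gja1 was lower in Mst KO and in mdx than in WT, and its spot was called absent in Mst KO at 0.0581 and present on the other arrays. The hyaluronan receptor gene Cd44 was higher in Oct4 transgenic MDSCs, with 3.31 against 1.60 in WT. Of the Snail family, repressors known to act on cadherin genes, 2 of 3 were called present. Snai1 had 3.71 in WT, 3.70 in Mst KO, 4.81 in mdx and 15.8 in Oct4 transgenic MDSCs, where Cdh2 was also highest. It was the family's only member past 2-fold, and only in the comparisons with Oct4 transgenic MDSCs. That is 1 of 2 measured genes higher than in WT, Mst KO and mdx, where 13.2%, 9.86% and 10.2% of all measured genes were. Whether Snai1 had a part in the Cdh2 signal was not tested.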

How the data were processed

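RNA of 4 MDSC cultures, 1 per mouse type, was labelled with biotin, as cRNA per the labels and as cDNA per the methods, and hybridised to 1 oligonucleotide membrane array each, with 274 gene spots for 268 genes and 14 control spots. Each deposited file set holds the raw spot intensity, the local background, the present or absent call and the normalized intensity. Per the file headers, background was set at the minimum spot and the present or absent threshold was 1.5. The methods name housekeeping genes for the normalization. In the deposited intensity values the lowest spot had been subtracted and the scaling factor was instead the mean of the 144 spots of middle rank, with a relative difference of at most 6.68e-16. The deposited values were used as they are. Scaling to 5 housekeeping genes (Gapdh, Ppia, B2m, Hsp90ab1 and Rps27a) would move the median log2 ratio of all genes over WT by 0.34 in Mst KO, −0.05 in mdx and −0.46 in Oct4 transgenic MDSCs.

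Repeat spots were averaged per gene. Ratios cover the genes with a present call on either array of a pair. A gene absent on 1 array had that value raised to the lowest present value of the array, and the fold was written for the raised value under the deposited scaling. Counts past 2-fold were made on unraised values, and list counts were repeated with raised values, an alternative chosen after seeing the data. The 8 other settings of a single ratio were scaling to the median of genes present on all 4 arrays, to Gapdh or to the 5 housekeeping genes, quantile normalization, no background subtracted, local background, raising absent values, and the rounded series table. Raising absent values cannot move a ratio of spots present on both arrays, and the rounded series table differs by rounding only. Named genes are the 7 cadherin and catenin genes, the 3 genes nearest to each in pattern, and list members past 2-fold. Ptprc, Kdr, Krt15, Cd8a, the neighbours of the Cdh11 spot and Cd44 as an MDSC marker are not covered by that rule and were picked with their values in view, as was the naming of all absent cadherins. The 7 genes, the lists and the tests were chosen with earlier results of these data known. Accessions of 257 of the 268 genes matched RefSeq. Repeat spots within an array had a log2 SD of 0.05, known only for genes with several spots. Precision is limited by there being 1 array per MDSC type. The counting was tested on simulated data. Python 3.11.15, numpy 2.4.6, pandas 2.3.3 and matplotlib 3.10.9 were used. Counts over the list of adhesion and gap junction genes are not reported here.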

Additional observations from a re-analysis of the deposited data

How the results depend on the processing

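No result changed direction past 2-fold under any alternative, and of the counts and the Cdh11 to Cdh15 ratios 135 stayed within 1.5 times the reported count or within the spread between spots, while 29 moved further. The 135 include raised absent values and the rounded series table, which could move few of these results. The count of the 7 genes at least 2-fold lower in Mst KO than in WT went from 4 to 2 when scaled to Gapdh, scaled to 5 housekeeping genes, with no background subtracted and the same genes for scaling, or at a 3-fold threshold. The count higher in Oct4 transgenic than in WT went from 2 to 1 under those settings and when scaled to the median of genes present on all 4 arrays, and so did the count higher in Oct4 transgenic than in Mst KO, which became 4 at 1.5-fold. At 3-fold the counts lower in Oct4 transgenic than in WT and than in Mst KO went from 2 to 1. At 1.5-fold 1 gene was lower in Mst KO than in mdx, against 0. The count higher in Oct4 transgenic than in mdx went from 1 to 2 at 1.5-fold and with local background. The log2 ratio of Cdh11 to Cdh15 became −0.31 in WT under quantile normalization. It was 4.92 in Mst KO, 5.18 in mdx and 3.71 in Oct4 transgenic MDSCs with no background subtracted, 5.49, 6.10 and 4.76 with local background, and 5.57 in mdx and 4.52 in Oct4 transgenic MDSCs under quantile normalization. For thresholds the cause is the threshold itself, and otherwise the cause was not tested.

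Cdh11 higher than WT on all 3 arrays, Cdh6 higher in Mst KO and mdx, and Cdh15 and Cdh13 lower on all 3 stayed past 2-fold under all 8 other processing settings. For spots called present on both arrays, raising absent values changed nothing and the rounded series table changed values by rounding only. Those settings are thus no check of such ratios. Cdh13 in Oct4 transgenic went past 2-fold over Mst KO and over mdx only with local background. Other folds that moved by more than 1.5 times without losing the 2-fold difference had as their farthest log2 ratios −1.74 for Cdh15 in Mst KO over WT, −1.28 and −3.01 for Cdh13 in Mst KO over WT, −1.66 and −6.74 for Cdh13 in mdx over WT, and −2.36 for Cdh11 and −2.55 for Cdh6 in Oct4 transgenic over Mst KO. For Cdh2 they were 1.17 in Oct4 transgenic over Mst KO and 1.75 in Oct4 transgenic over mdx. Dim spots are the limit: Cdh15 outside WT lay at 2.49 times its local background or less, and Cdh13 in mdx at 1.02 times. No paired analysis was possible because each MDSC type had 1 array and no test was run.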
